A study of Morchella importuna with 4 samples.

Results

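Tyrosinases, laccases and the enzymes of melanin synthesis were followed between the sclerotial and the hyphal area of plates of the morel Morchella importuna. The genes were found by their annotation alone. A gene was taken when its description, or that of its best match among known proteins, contained tyrosinase, laccase, melanin, scytalone or hydroxynaphthalene. Of 11599 genes, 4 matched. For 3 of them (JGI 570770, JGI 540642 and JGI 521068) the best match is named as a tyrosinase or tyrosinase-like protein, and they are called tyrosinases here. The other, JGI 516758, is annotated as a laccase. The words melanin, scytalone and hydroxynaphthalene matched 0 genes, so an enzyme known by its name for DHN melanin could not be followed here.

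RNA was sequenced from the sclerotial area, SII, in 2 libraries and from the hyphal area, SIO, in 2 more. All 4 came from plates of a single strain grown on potato dextrose agar at 20 °C in the dark for 4 days, at sclerotial initiation. SII was taken from the centre of the plate, within a radius of 2 cm, and SIO from the hyphae outside it, with material of 2 plates pooled in each library. The study describes the areas as parts of the same plates, but no source used here says which libraries share plates. The areas differed in place on the plate as well as in form, and these cannot be told apart here. No genes that define sclerotial cells were at hand, so the areas were taken as labelled. In pieces of mycelium, fewer cells of a type and less RNA per cell cannot be told apart either.

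Tyrosinases are copper enzymes that oxidise phenols such as tyrosine and DOPA to quinones, which then polymerise into brown and black melanins. Laccases are multicopper oxidases that take electrons from a wide range of phenols and pass them to oxygen, and fungi use them in pigment formation, in the breakdown of lignin and in detoxification. Many ascomycetes make a further melanin from a polyketide through scytalone, and others can form pyomelanin from homogentisate, an intermediate of tyrosine breakdown. Melanin is deposited in the outer layers of the sclerotia of many fungi, where it is known to protect against radiation, drying and oxidants.

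The expression level of each gene is given in FPKM, fragments scaled to the length of the gene and to the mapped fragments of the library. The whole reads behind these values totalled 23108142 to 24841181 in SII and 27579489 to 27992918 in SIO, where genes with 0 SII reads could not be counted. The libraries of an area were not equally alike. The log2 difference between the replicates of an area had an SD over genes of 0.68 in SII and 0.23 in SIO. The R2 across 11599 genes, not independent of each other, was 0.810 and 0.813 between SII replicate 2 and the SIO libraries, and 0.738 and 0.735 between SII replicate 1 and the SIO libraries. The comparison by limma used log2(FPKM + 1) and took in the 8906 genes that reached 1 FPKM in 2 or more libraries. To be called, a gene needed an adjusted p (Benjamini-Hochberg) below 0.01 and a log2 fold change of 1 or more in either direction. A log2 fold change is SII over SIO on this scale, which understates the change of genes at low levels. The p-values set the difference between the areas against the spread between these libraries, which limma moderates for each gene over all genes tested.

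All 4 genes had less RNA in SII than in SIO in every pair of libraries, and for 2 tyrosinases the difference passed the test. JGI 570770 and JGI 540642 were lower in SII, so that 2 of 4 were called, against 22.4% of all genes tested. JGI 521068 and the laccase JGI 516758 did not pass, at adjusted p of 0.0185 and 0.0223 from limma, and 0 of 4 were higher. Of all genes tested, 12.2% were called lower and 10.3% called higher in SII. Under median-ratio scaling the calls over all genes were 1010 higher and 739 lower, against 914 higher and 1084 lower as deposited, and under both scalings the same 2 tyrosinases were called. Both SII libraries lay below both SIO libraries for 4 of 4 genes here, and for 43.9% of all genes tested, and the opposite order held for 0 genes here and 35.6% of all. The median log2 fold change was -3.55 over the 4 genes and -0.11 over all genes tested. JGI 570770 and the laccase reached 1 FPKM in all 4 libraries. The other 2 reached it in both SIO libraries but in SII only in replicate 2, so their levels in SIO alone put them among the genes tested.

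**Figure D1:**
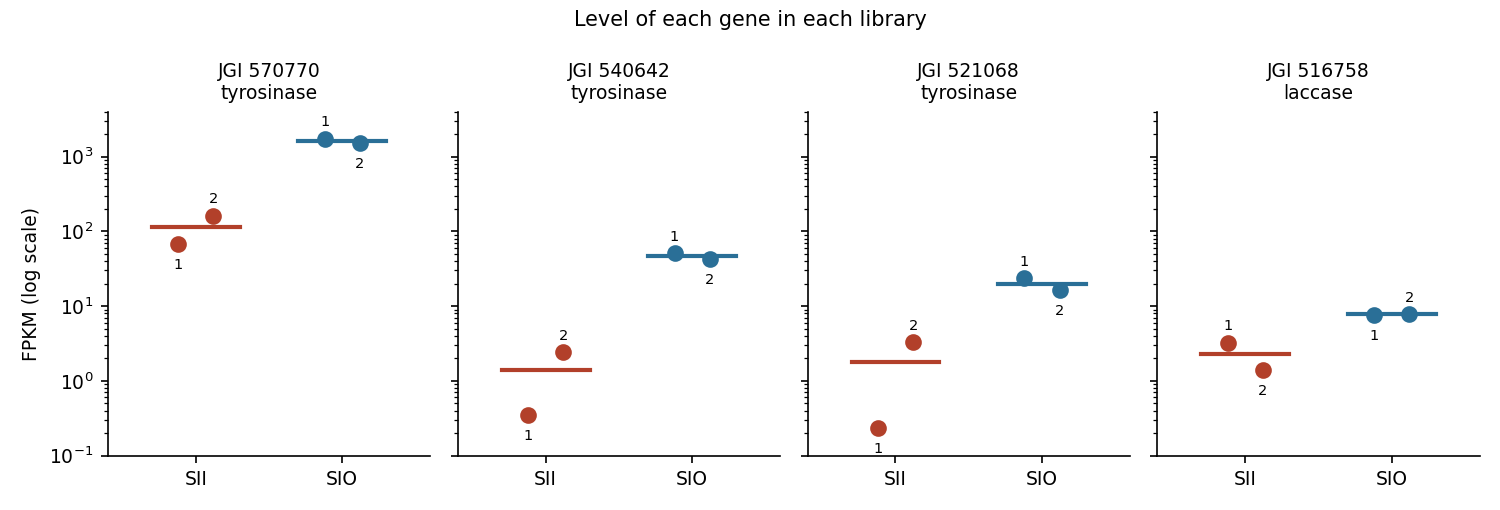
FPKM (log axis) of the 3 tyrosinases and the laccase in the 2 SII libraries (left in each panel) and the 2 SIO libraries (right). Points are libraries with their replicate number and bars are means. For each gene both SII points lie below both SIO points, and for the tyrosinases SII replicate 2 lies above SII replicate 1, whereas for the laccase it lies below.

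JGI 570770 was by far the most abundant of the 4. It is annotated as a di-copper centre-containing protein, the fold shared by tyrosinases and hemocyanins, and its best match is a tyrosinase precursor. Its level was 68.1 and 161 FPKM in SII replicates 1 and 2, against 1740 and 1532 FPKM in SIO replicates 1 and 2. The areas did not overlap, and the SII libraries differed from each other by 2.37 times, the SIO libraries by 1.14 times. The SII libraries averaged 115 ± 65.8 FPKM and the SIO libraries 1636 ± 147 FPKM (SD, n = 2 each), so that the SII mean was 7.003% of the SIO mean. The log2 fold change was -3.95 (standard error 0.44, 95% confidence interval -5.13 to -2.77, adjusted p = 0.00531 from limma). Of the 8906 genes tested, 43 had a lower fold change.

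Among all 11599 genes, JGI 570770 ranked 1318th by its mean level in SII and 47th in SIO. It thus belonged to the abundant transcripts of the hyphal area. It alone supplied 99.1% and 96.6% of the summed FPKM of the 3 tyrosinases in SII, and 95.9% and 96.3% in SIO. The sum of the 3 tyrosinases was 0.00747% and 0.0181% of all FPKM in the SII libraries, against 0.228% and 0.199% in the SIO libraries. These sums were not tested, since 2 libraries against 2 cannot give a two-sided exact permutation p below 0.33.

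JGI 540642 showed the largest fall of the 4. Its own description is expressed protein, and it is counted here only because its best match is a putative tyrosinase-like protein. It was at 0.351 and 2.41 FPKM in SII replicates 1 and 2, against 51.2 and 42.0 FPKM in SIO replicates 1 and 2. In SII it was close to the limit of detection, with 5 and 32 reads, against 822 and 664 reads in SIO. The exact Poisson 95% interval of the 5 reads is 1.62 to 11.7, which covers counting error only. Its SII mean was 2.96% of the SIO mean, with 1.38 ± 1.46 FPKM in the SII libraries and 46.6 ± 6.51 FPKM in the SIO libraries (SD, n = 2 each). The log2 fold change was -4.46 (standard error 0.49, 95% confidence interval -5.77 to -3.15, adjusted p = 0.00524 from limma), and 17 genes tested had a lower one. With limma-voom on the reads, tried after seeing the data, the log2 fold change was -5.59 (adjusted p = 0.00715). With a pseudocount of 0.1 it was -5.45 and the gene was no longer called (adjusted p = 0.0108).

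JGI 521068 was the third tyrosinase, again with a di-copper centre, and its best match carries the name tyrosinase outright. Its FPKM was 0.233 and 3.29 in SII replicates 1 and 2, against 23.5 and 16.2 in SIO replicates 1 and 2. Of the 4 genes it had the widest gap between replicates, 14.1 times in SII. The reads behind the SII values were 7 and 92, with exact Poisson 95% intervals of 2.81 to 14.4 and 74.2 to 113 that cover counting error only. The SII libraries averaged 1.76 ± 2.16 FPKM and the SIO libraries 19.8 ± 5.14 FPKM (SD, n = 2 each). The log2 fold change was -3.16 (standard error 0.65, 95% confidence interval -4.90 to -1.42) and the adjusted p of 0.0185 from limma missed the threshold. By limma-voom on the reads the log2 fold change was -4.45, and the gene was not called there either (adjusted p = 0.0252). Leaving out SII replicate 1 moved it to -2.26 and leaving out SII replicate 2 to -4.06.

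The 3 tyrosinases had the same order of libraries within the sclerotial area. Each was higher in SII replicate 2 than in SII replicate 1, by 1.23, 1.34 and 1.80 on the log2(FPKM + 1) scale for JGI 570770, JGI 540642 and JGI 521068. This order is not particular to them, since every gene of the related lists below that was called lower in SII had it too. The share of all genes with this order was not counted. SII replicate 2 was also the library nearer to the hyphal area over all genes. The part of that difference between the SII libraries in these values was not tested.

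The laccase JGI 516758 was expressed at a low level in both areas. It is described as a putative extracellular dihydrogeodin oxidase/laccase, and its best match is a multicopper oxidase. Dihydrogeodin oxidase of Aspergillus terreus couples phenol rings in the synthesis of geodin, and the annotation does not give the substrate of the morel enzyme. It had 3.22 and 1.41 FPKM in SII replicates 1 and 2, against 7.66 and 7.79 FPKM in SIO replicates 1 and 2. Here SII replicate 1 was the higher of the SII libraries, the reverse of the tyrosinases, and the SIO libraries were nearly equal. Behind the values stood 169 and 69 reads in SII, against 453 and 454 reads in SIO. The SII mean was 29.96% of the SIO mean, with 2.31 ± 1.28 FPKM in the SII libraries and 7.73 ± 0.0945 FPKM in the SIO libraries (SD, n = 2 each). The log2 fold change was -1.45 (standard error 0.32, 95% confidence interval -2.32 to -0.59), and the adjusted p of 0.0223 from limma missed the threshold. A lower fold change was found for 1212 of the genes tested.

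When either SIO library was left out, none of the 4 genes was called. The log2 fold changes were then -3.86 (without replicate 1) and -4.04 (without replicate 2) for JGI 570770, and -4.32 and -4.60 for JGI 540642. In these fits the lone SIO library is assumed to vary like the SII libraries. Hardly any of the 8906 genes was then called lower in SII, so the loss of these calls is not particular to the 4 genes. With no filter on low values 0 of the 4, and 0 of all genes, passed the limma test, although 5305 genes had an unadjusted p under 0.05. When either SII library was left out all 4 genes were called, along with 3254 (without replicate 1) and 3911 (without replicate 2) of the 8906 genes, and in these fits the spread is that of the SIO pair, which lay closer together. Every setting tried kept the 4 genes lower in SII.

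**Figure D2:**
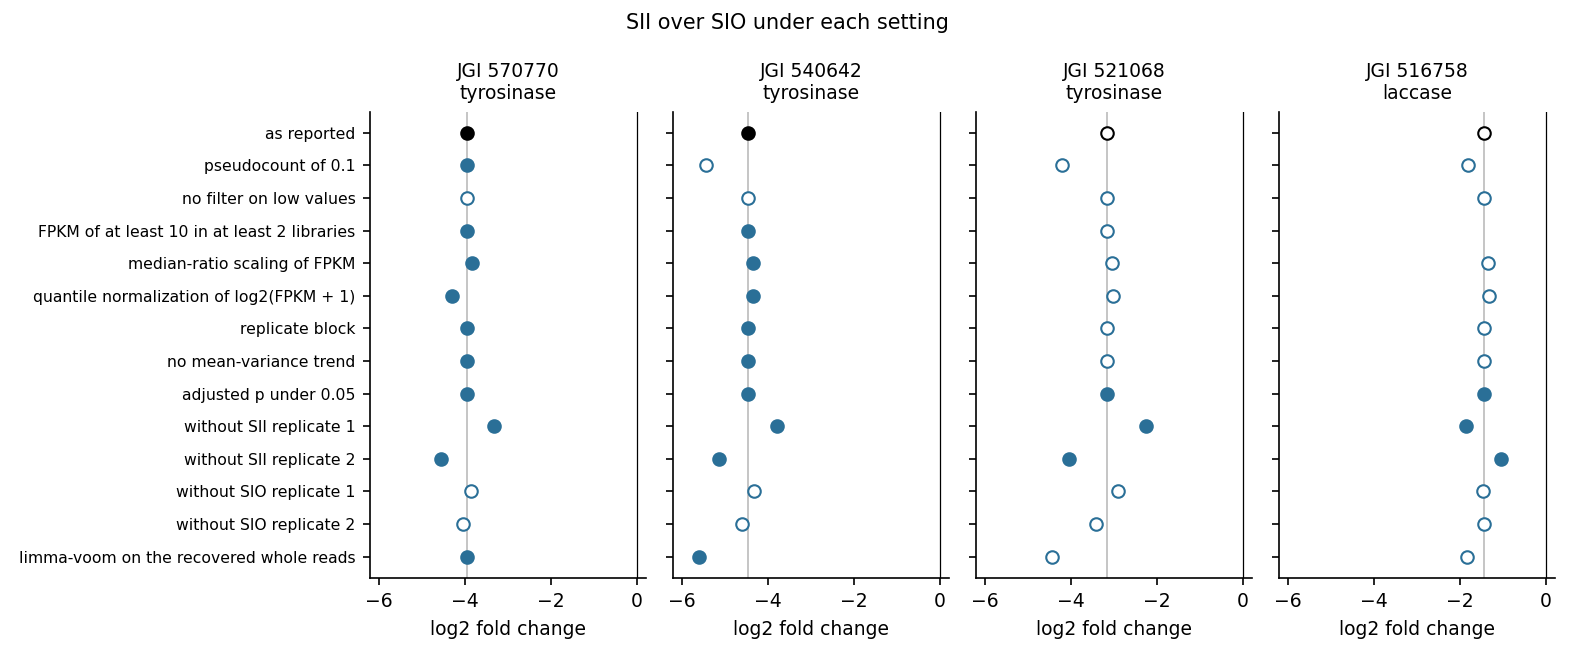
Log2 fold change (SII over SIO) of the 4 genes under each setting, with the reported value in black and its line in grey. Filled points were called at that setting's threshold and open points were not. All points lie left of 0, between -5.59 and -1.05, and the points without an SIO library are open for every gene.

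Tyrosinases and laccases belong to wider families of copper proteins, and the annotation holds 17 other genes with the names of these families. Of these, 10 are di-copper proteins with no tyrosinase in their description and 7 are multicopper oxidases or cupredoxins, the fold of laccases. This list was described by its counts only. Of 14 tested, 0 were called higher and 5 lower in SII, with a median log2 fold change of -0.80. The calls fell in both families, with 2 of 8 di-copper genes and 3 of 6 multicopper oxidase or cupredoxin genes tested called lower, a split made after the values were seen. Over all genes tested, 12.2% were called lower. With median-ratio scaling or quantile normalization, 4 of 14 were called lower. Leaving out SII replicate 1 gave 1 higher and 7 lower, and leaving out SII replicate 2 gave 2 higher and 7 lower, with 21.6% and 24.0% of all genes lower in these fits. Leaving out either SIO library gave 0 calls.

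The most marked of them was the di-copper gene JGI 609946. It was at 0.169 and 1.01 FPKM in SII replicates 1 and 2, against 51.5 and 40.9 FPKM in SIO replicates 1 and 2, with a log2 fold change of -4.94 (standard error 0.33, adjusted p = 0.00256 from limma). In SIO these levels were close to the 51.2 and 42.0 FPKM of the tyrosinase-like JGI 540642. In SII both genes were close to the limit of detection, with 9 and 50 reads for JGI 609946 and 5 and 32 for JGI 540642. No order between them is read from their SII levels. JGI 609946 reached 1 FPKM in SII only in replicate 2, so its levels in SIO alone put it among the genes tested. The deposited table numbers these 2 genes consecutively, a point noticed after their values were seen. Their places in the genome were not looked up here.

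Among the multicopper oxidase and cupredoxin genes, the cupredoxin JGI 526307 was at 0.371 and 1.12 FPKM in SII, against 17.2 and 17.9 FPKM in SIO (log2 fold change -3.44 with a standard error of 0.28, limma adjusted p = 0.00330). Its SII levels rest on 17 and 48 reads, and its annotation names the fold only. JGI 564736, annotated as the iron transport multicopper oxidase FET3, was at 1.21 and 2.39 FPKM in SII, against 9.54 and 10.4 FPKM in SIO, and was lower at an adjusted p of 0.00743 from limma (log2 fold change -2.00). FET3 is known from yeast as the ferroxidase of high-affinity iron uptake, and it makes no pigment there. The cupredoxin JGI 335641 and the di-copper gene JGI 565906 were also called lower, with log2 fold changes of -1.51 and -1.49.

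Other members of these families did not pass the test, and some had more RNA in SII. The di-copper gene with the highest mean level, JGI 570924, was at 14.0 and 35.8 FPKM in SII and at 100 and 103 FPKM in SIO (log2 fold change -2.13, adjusted p = 0.0205). JGI 606762 was at 46.2 and 66.8 FPKM in SII, against 26.5 and 24.3 FPKM in SIO (log2 fold change 1.10, adjusted p = 0.0197 from limma). JGI 534314 and JGI 495995 had log2 fold changes of 0.75 and 1.38, at adjusted p of 0.0412 and 0.0610. In these 3 and in the cupredoxin JGI 609751, both SII libraries lay above both SIO libraries, as in 35.6% of all genes tested. The opposite order held for the 5 genes called lower, and for JGI 570924 and the cupredoxin JGI 570433, beside 43.9% of all genes tested. The cupredoxin JGI 609751, the most abundant of its family, was at 50.1 and 29.4 FPKM in SII, against 26.9 and 20.5 FPKM in SIO (log2 fold change 0.69, limma adjusted p = 0.141). The log2 fold changes of the 14 genes tested thus ranged from -4.94 to 1.38.

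**Figure D3:**
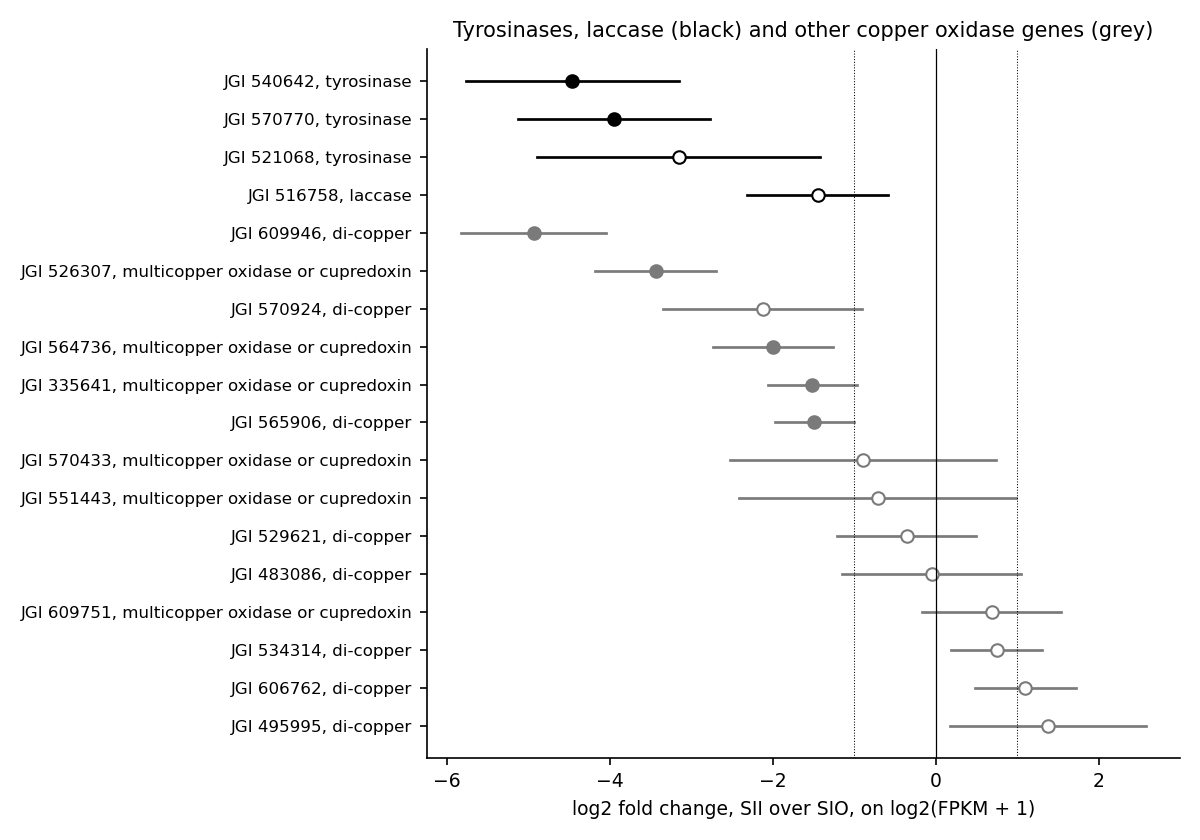
Log2 fold change (SII over SIO) with its 95% confidence interval from limma for the tyrosinases and the laccase (black) and the 14 other di-copper, multicopper oxidase and cupredoxin genes tested (grey). Filled points were called and open points were not, and dotted lines mark -1 and 1. The 2 called tyrosinases lie at -4.46 and -3.95, and the other genes run from -4.94 for JGI 609946 to 1.38 for JGI 495995.

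Copper must reach these enzymes for them to act, and 6 genes of copper supply were tested. Of these, 1 was higher and 1 lower in SII, near the 10.3% higher and 12.2% lower of all genes tested, and the median log2 fold change was -1.09. The lower one, JGI 531882, is the copper chaperone of superoxide dismutase, which serves another copper enzyme (6.43 and 9.78 FPKM in SII, against 46.6 and 50.1 FPKM in SIO, log2 fold change -2.46 with a standard error of 0.25, limma adjusted p = 0.00441). The higher one, JGI 7081, is matched to the copper chaperone of cytochrome c oxidase (125 and 98.6 FPKM in SII, against 29.8 and 27.5 FPKM in SIO, log2 fold change 1.92 with a standard error of 0.18, limma adjusted p = 0.00417). Neither gene was called when either SIO library was left out, and the list had 1 higher and 3 lower when either SII library was. Of all genes, 21.6% were called lower without SII replicate 1 and 24.0% without SII replicate 2. The most abundant gene of the list, the Ctr copper transporter JGI 484592, was at 146 and 183 FPKM in SII and at 183 and 172 FPKM in SIO (log2 fold change -0.12, adjusted p = 0.617). The iron copper transporter JGI 58267, another Ctr copper transporter, JGI 491034, and the P-type ATPase JGI 544111 were not called. Their log2 fold changes were -1.29, -1.75 and -0.90, at limma adjusted p of 0.0170, 0.0147 and 0.0833. In each, both SII libraries lay below both SIO libraries, as in 43.9% of all genes tested. JGI 491034 had only 0 and 6 reads in SII. A further SIO library, described under Other observations, entered no comparison. For JGI 491034 it had 4.79 scaled reads, between the 0 and 6.76 of SII replicates 1 and 2. For JGI 544111 it had 1524, also between the SII libraries (1807 and 1064), and for JGI 58267 it lay above both SII libraries.

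Tyrosine, the textbook substrate of tyrosinase, comes from the shikimate pathway. Of 11 genes of shikimate and aromatic amino acid synthesis tested, 0 were higher and 4 lower in SII, with a median log2 fold change of -1.42, beside 10.3% higher and 12.2% lower among all genes tested. The pentafunctional AROM protein JGI 525254, which carries most steps between the first sugar-derived intermediate and chorismate, was at 1.65 and 3.60 FPKM in SII, against 24.9 and 27.4 FPKM in SIO (log2 fold change -2.96 with a standard error of 0.32, limma adjusted p = 0.00519). Chorismate synthase, JGI 535329, was at 16.3 and 28.3 FPKM in SII, against 124 and 137 FPKM in SIO (log2 fold change -2.55 with a standard error of 0.30, limma adjusted p = 0.00560). The other calls were a DAHP synthetase, JGI 536843, of the entry step, and an anthranilate synthase component, JGI 506880, of the branch to tryptophan. Prephenate dehydrogenase, JGI 479915, of the branch to tyrosine itself, had 11.3 and 17.4 FPKM in SII and 31.7 and 32.7 FPKM in SIO and was not called (adjusted p = 0.0222). The most abundant gene of the list, JGI 497168, is described as a chorismate mutase, but its best match is a salicylate biosynthesis protein, pchB. It was at 555 and 720 FPKM in SII, against 1113 and 1011 FPKM in SIO (log2 fold change -0.75, limma adjusted p = 0.0392). The other gene described as a chorismate mutase, JGI 608213, was at 74.1 and 50.5 FPKM in SII, against 29.3 and 24.6 FPKM in SIO, and was not called (log2 fold change 1.16, limma adjusted p = 0.0201). Chorismate mutase opens the branch to tyrosine and phenylalanine. These 2 genes had log2 fold changes of opposite sign, and the annotation does not settle whether JGI 497168 acts at that step. The list also holds a gene of tryptophan breakdown, JGI 552641, through the word anthranilate, and it was not called. JGI 607623, described as a quinate 5-dehydrogenase and matched to a 3-dehydroshikimate dehydratase, is in the list too and was not called (log2 fold change 0.12). Leaving out SII replicate 1 gave 6 lower genes (21.6% of all genes were then lower), and leaving out SII replicate 2 gave 7 lower and 1 higher (24.0% of all genes lower). Leaving out either SIO library gave 0 calls.

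In the breakdown of tyrosine, the dioxygenases that form and open homogentisate were both higher in SII. JGI 531360, 4-hydroxyphenylpyruvate dioxygenase, which makes homogentisate, was at 715 and 704 FPKM in SII, against 105 and 69.1 FPKM in SIO (log2 fold change 3.04 with a standard error of 0.24, limma adjusted p = 0.00326). Homogentisate 1,2-dioxygenase, JGI 539328, which cleaves the ring, was at 373 and 326 FPKM in SII, against 107 and 79.0 FPKM in SIO (log2 fold change 1.91 with a standard error of 0.21, limma adjusted p = 0.00524). For neither did the areas overlap, as for 35.6% of all genes tested in that direction. Fumarylacetoacetase, JGI 560572, of the last step, was at 59.2 and 84.6 FPKM in SII and at 87.4 and 67.7 FPKM in SIO, and the areas overlapped. Of 3 genes of this list tested, 2 were thus higher and 0 lower, beside 10.3% and 12.2% of all genes tested. The count was again 2 higher when SII replicate 1 or SII replicate 2 was left out, beside 1331 and 1778 of the 8906 genes, and 0 when either SIO library was.

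Of genes found by words for polyketide synthesis, 3 were tested, and the annotation ties none of them to melanin. JGI 584802 is a beta-ketoacyl synthase matched to Cem1, known from yeast as a mitochondrial enzyme of fatty acid synthesis, and JGI 505748 is matched to a polyketide cyclase/dehydrase and lipid transporter. By limma 0 of the 3 were called and 1 had an unadjusted p under 0.05, and by limma-voom 0 were called. The median log2 fold change, -0.52, is the value of JGI 584802. JGI 478823, matched to a polyketide synthase, was at 3.29 and 9.50 FPKM in SII, against 43.6 and 67.9 FPKM in SIO (log2 fold change -3.05 with a standard error of 0.51), and its adjusted p of 0.0111 from limma lay just outside the threshold. Its product is not given by the annotation. When SII replicate 1 or SII replicate 2 was left out, this list gave 1 lower, against 21.6% and 24.0% of all genes.

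A list of peroxidases held 7 genes, of which none is annotated as an oxidase of phenols. They are 5 genes of the acid phosphatase/haloperoxidase or PAP2 fold, a mitochondrial cytochrome c peroxidase (JGI 535582) and a heme peroxidase matched to a fatty acid oxygenase. In SII 1 was higher and 1 lower, near the 10.3% higher and 12.2% lower of all genes tested, with a median log2 fold change of 0.63. The higher one, JGI 537197, is described as an acid phosphatase/vanadium-dependent haloperoxidase, a fold in which most members are phosphatases (345 and 402 FPKM in SII, against 5.55 and 9.13 FPKM in SIO, log2 fold change 5.52 with a standard error of 0.26, limma adjusted p = 0.00154). The same further SIO library, described under Other observations, entered no comparison and lay far above the SIO libraries used. It had 4323 scaled reads of JGI 537197, against 201 and 348 in SIO replicates 1 and 2. The SII replicates 1 and 2 had 12637 and 16465. The lower one, JGI 501111, is the one matched to a fatty acid oxygenase (194 and 271 FPKM in SII, against 780 and 810 FPKM in SIO, log2 fold change -1.79 with a standard error of 0.22, limma adjusted p = 0.00593). When either SIO library was left out, JGI 537197 was still called and JGI 501111 was not. Hardly any of all genes tested was called lower in these fits, so this does not rank the 2 genes. Without SII replicate 2 the list gave 3 higher and 1 lower, beside 1778 higher and 2133 lower of the 8906 genes. An aromatic ring-opening dioxygenase, JGI 487484, the single gene found by words for phenol or aromatic hydroxylases, was lower (0.673 and 1.06 FPKM in SII, against 8.86 and 9.21 FPKM in SIO, log2 fold change -2.43 with a standard error of 0.20, limma adjusted p = 0.00344), and was not called when either SIO library was left out.

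**Figure D4:**
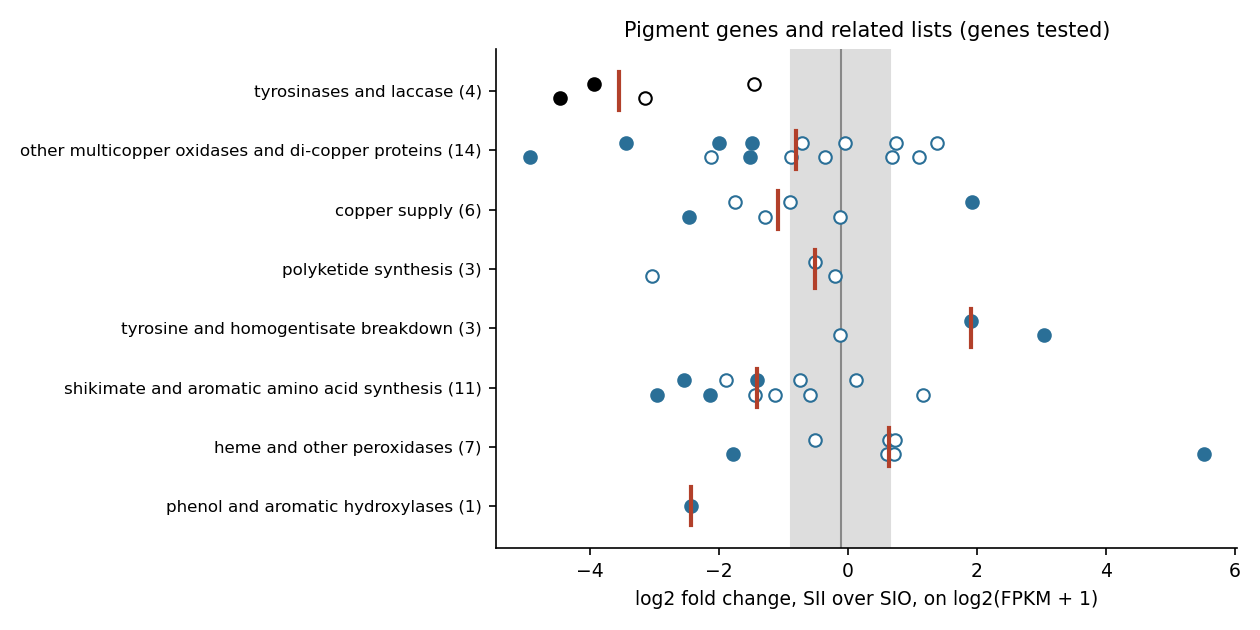
Log2 fold change (SII over SIO) of the tyrosinases and the laccase (black, top row) and of the genes tested in each related list (blue). Filled points were called and open points were not, red bars are medians, and the grey band spans the middle quartiles of all 8906 genes tested, from -0.89 to 0.65 around a median of -0.11. The tyrosinases and the laccase lie left of the band, and the 2 called genes of tyrosine breakdown lie right of it.

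The annotated genes with levels most like those of JGI 570770 over the 4 libraries were sought by the Euclidean distance of log2(FPKM + 1). The nearest of all genes was an extracellular metalloprotease, JGI 504562, at a distance of 0.36 (57.0 and 179 FPKM in SII, against 1519 and 1581 FPKM in SIO). An alpha-1,4-glucan lyase, JGI 604718, which cleaves glycogen and starch to anhydrofructose, followed at 0.60. Malate synthase, JGI 543485, of the glyoxylate cycle, lay at 0.998, a glyceraldehyde 3-phosphate dehydrogenase, JGI 187740, at 1.02, and a GroES-like alcohol dehydrogenase, JGI 548712, at 1.03. In each of these 5, as in JGI 570770, SII replicate 2 lay above SII replicate 1 and both lay below the SIO libraries. That order follows largely from the choice of genes by these same levels. The distance describes similar levels in 4 libraries and nothing more.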

How the data were processed

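The values are FPKM per library, computed by the authors from clean reads mapped with TopHat2 2.1.0, as the submitters' processing notes and the paper's methods name it. The read counter is not given in the sources used here, nor how reads shared by related genes, or the strand, were treated. The deposited table also holds a signal per area, the authors' mean of scaled read counts, and the whole reads of each library followed from it and the FPKM, to 0.01 of a read. Its columns of fold changes and p-values from DEGSeq were not used. The names of the FPKM columns fit both titles of an area, so columns were matched to areas only, and replicate numbers are those ending the column names.

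Genes that reached 1 FPKM in 2 or more of the 4 libraries were fitted with limma 3.58.1 in R 4.3.3 on log2(FPKM + 1), with area alone in the model and a mean-variance trend, and p-values were adjusted over all 8906 genes. The fit was tested on simulated data that had the same noise for all genes of an area. Changes were placed only in genes well expressed in SIO. Wide gaps between replicates at low levels were thus not covered. Sums and figures used pandas 2.3.3, numpy 2.4.6, scipy 1.17.1 and matplotlib 3.10.9. Genes were named by a rule: all 4 tyrosinase and laccase genes, the 2 largest called changes and the most abundant gene of each related list, and the 5 nearest genes. The members and lists were chosen with earlier results of these data known, and lists are text patterns on the descriptions. Other genes named within the lists were chosen after their values were seen. Alternatives were another pseudocount, other filters, other scalings, a replicate block, no trend, a looser threshold, leaving out each library and limma-voom on the reads, which was added once the data had been seen. No sequences of these genes were used here.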

Additional observations from a re-analysis of the deposited data

How the results depend on the processing

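All 4 genes kept a lower level in SII under every alternative that could be run. The laccase has no value with FPKM of at least 10, since it does not pass that filter. The count of the 4 called, 2 as reported, was 1 with a pseudocount of 0.1, 0 without a filter on low values and 4 at an adjusted p under 0.05, and it ranged from 0 to 4 when a library was left out. It was 2 with the stricter filter, median-ratio scaling, quantile normalization, no mean-variance trend or limma-voom. Over all genes, 1998 were called as reported, 0 without a filter (5305 at an unadjusted p under 0.05, and 1980 by limma-voom with the filter), 3262 at an adjusted p under 0.05, and 79 to 3911 when a library was left out. Without the filter the 2 called tyrosinases had adjusted p of 0.0299 and 0.0295, and the cause was not tested. With the number of the libraries as a replicate block, 1950 genes and the same 2 of the 4 were called, and no other call among the 4 changed. The study took both areas from the same plates, but no source used here says that libraries of the same number share them. The deviations of same-numbered libraries from their area means had a correlation of 0.20 across 8906 genes. Depth limits JGI 540642 and JGI 521068 in SII replicate 1, with 5 and 7 reads. Among the related genes named, JGI 609946, JGI 526307, JGI 487484 and JGI 491034 had 9, 17, 17 and 0 reads there. Their levels in SIO alone put them among the genes tested.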

Other observations

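The authors' mean of scaled reads for SIO is not a mean of the 2 SIO libraries used above. Subtracting their reads left whole reads, 21730598 in all, of a further SIO library that has no FPKM of its own in the table and entered no comparison. It was read as the last of 3 libraries in that mean. On the authors' scale, JGI 570770 had 3115 and 8249 scaled reads in SII replicates 1 and 2, against 78953 and 73133 in SIO replicates 1 and 2 and 59081 in the further library. JGI 540642 had 4.69 and 36.1 in SII, against 679 and 586 in SIO and 334 in the further library. JGI 521068 had 6.57 and 104 in SII, against 656 and 476 in SIO and 443 in the further library. The laccase JGI 516758 had 159 and 77.8 in SII, against 374 and 400 in SIO and 473 in the further library. For the 3 tyrosinases the further library thus lay below both SIO libraries and above both SII libraries, and for the laccase it lay above all 4.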
